A study of Mus musculus with 46 samples.

Results

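The genes described here are 4 cyclin-dependent kinases (Cdk1, Cdk2, Cdk4 and Cdk6), 5 inhibitors of such kinases (Cdkn1a, Cdkn1b, Cdkn1c, Cdkn2c and Cdkn2d) and Cdkn3, a phosphatase that acts on the kinases. They were taken by name from the deposited count and TPM tables, which list 20999 genes, and all 10 were found and passed the filter on low counts that left 12230 genes to test. The study sorted mouse microglia, the resident macrophages of the brain, by the proliferation marker Ki67 and measured messenger RNA, histone marks, RNA polymerase II and open chromatin. RNA-seq covered 5 groups with 2 libraries each, which the labels call independent biological replicates, all from male C57BL/6 mice. Adult microglia came from wild-type mice aged 90 days and are labelled Ki67-negative. PND8 microglia came from pups aged 8 days that carry a Ki67-rfp reporter allele, and were sorted into reporter-positive and reporter-negative cells. Repopulating microglia came from Ki67-rfp mice aged 75 days that had been fed PLX5622, an inhibitor of the CSF1 receptor that depletes microglia, for 17 days and then left 3 days to recover. These too were sorted into Ki67-positive and Ki67-negative cells. ChIP-seq used wild-type males stained with a Ki67 antibody after fixation, and included a further model, mice aged 90 days fed cuprizone, a copper chelator that damages myelin, for 4 weeks. The adult wild-type mice were 60 or 65 days old for H3K27ac and Rpb2, 75 for H3K4me3 and 80 for ATAC-seq, and the repopulating mice used for H3K27ac were 90 days old. ATAC-seq had 1 library each of adult cells and of Ki67-positive cells from Ki67-rfp mice at PND8 and in repopulation, and Rpb2 had 2 adult and 1 PND8 Ki67-positive library. All groups were isolated on ice with 1 mM sodium butyrate, an inhibitor of histone deacetylases, and 1 uM Flavoperidol, which the labels spell so and which is itself an inhibitor of cyclin-dependent kinases.

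Cyclin-dependent kinases drive the steps of the cell cycle when bound by cyclins. CDK4 and CDK6 with D-type cyclins start the inactivation of the RB protein in G1, CDK2 with cyclins E and A acts around S phase, and CDK1 with cyclins A and B drives entry into mitosis. Inhibitors of the INK4 family, here Cdkn2c (p18) and Cdkn2d (p19), bind CDK4 and CDK6 and keep D-type cyclins off them. Cip/Kip inhibitors, which are Cdkn1a (p21), Cdkn1b (p27) and Cdkn1c (p57), bind whole cyclin and kinase complexes, and Cdkn1a is a textbook target of p53. Cdkn3 (KAP) removes an activating phosphate from the loop of CDK2 and CDK1.

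The promoters of Cdk1 and Cdkn3 are shown first, since these 2 members had the lowest adult RNA and the same pattern of chromatin marks. Those of Cdkn2c and Cdkn1a follow for contrast, an INK4 and a Cip/Kip inhibitor that were also far above the adult level in every other group. Each line gives the 250 bases upstream of the start site used in the count table, from RefSeq on GRCm38.p6 (mm10), read 5′ to 3′ on the gene's own strand. Capitals mark the boxes searched on both strands: CCAAT (the core bound by NF-Y, read as ATTGG on the other strand), TTTGAA (the core of the cell cycle homology region, CHR, or TTCAAA), TTTCGCGC (an E2F site) and GGGCGG (the GC box of Sp1 and KLF factors, or CCGCCC). All 4 windows lie just outside the first exon, Cdk1 at chr10:69352913-69353162 on the minus strand, Cdkn3 at chr14:46760291-46760540 on the plus strand, Cdkn2c at chr4:109666757-109667006 on the minus strand and Cdkn1a at chr17:29093519-29093768 on the plus strand.
Cdk1: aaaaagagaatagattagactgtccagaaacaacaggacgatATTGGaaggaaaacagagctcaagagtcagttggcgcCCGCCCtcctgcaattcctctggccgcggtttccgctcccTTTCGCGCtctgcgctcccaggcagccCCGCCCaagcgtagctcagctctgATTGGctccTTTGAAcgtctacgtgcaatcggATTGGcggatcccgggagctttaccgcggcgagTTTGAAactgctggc
Cdkn3: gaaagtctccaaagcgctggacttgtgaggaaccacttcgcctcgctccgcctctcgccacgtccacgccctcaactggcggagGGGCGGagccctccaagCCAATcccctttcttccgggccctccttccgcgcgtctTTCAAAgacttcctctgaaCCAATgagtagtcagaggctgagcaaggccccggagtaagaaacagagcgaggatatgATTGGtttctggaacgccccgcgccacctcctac
Cdkn2c: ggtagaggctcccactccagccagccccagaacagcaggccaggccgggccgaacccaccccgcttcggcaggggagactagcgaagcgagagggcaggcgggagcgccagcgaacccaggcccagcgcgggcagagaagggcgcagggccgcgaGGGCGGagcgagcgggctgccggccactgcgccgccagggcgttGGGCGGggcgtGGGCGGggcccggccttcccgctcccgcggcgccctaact
Cdkn1a: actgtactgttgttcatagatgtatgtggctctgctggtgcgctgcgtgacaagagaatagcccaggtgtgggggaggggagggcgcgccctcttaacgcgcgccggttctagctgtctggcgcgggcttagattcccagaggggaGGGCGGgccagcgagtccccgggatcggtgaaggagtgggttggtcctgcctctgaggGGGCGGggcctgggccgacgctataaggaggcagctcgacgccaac

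Positions here count bases back from the start site, the base before it being -1, and give the first base of the match. The Cdk1 window held 3 CCAAT cores at -208, -80 and -48, all read as ATTGG, 2 CHR cores at -71 and -15, and 1 TTTCGCGC at -131. The Cdkn3 window held 3 CCAAT cores at -149, -92 and -34 and 1 CHR core at -111, of which the last CCAAT and the CHR lie on the opposite strand. Of 32817 RefSeq promoter windows of the same length, 33.8% held a CCAAT core, 16.0% a TTTGAA core and 0.256% a TTTCGCGC. Among the 9 members with a window in the table, CCAAT occurred in 5 (Cdk1, Cdk2, Cdkn1b, Cdkn2d and Cdkn3), TTTGAA in 2 (Cdk1 and Cdkn3) and TTTCGCGC in Cdk1 alone. The variants TTCGAA, TTTGGCGC and TTCCCGCC occurred in no member window, against 1.33%, 0.417% and 1.85% of all windows. The GC box occurred in 8 of the 9 windows, all but that of Cdk6, against 32.7% of all windows, and TATAAA only in that of Cdk6, against 12.4%. GC content was 77.2% for Cdkn2c, 56.4% for Cdk1 and 60.0% for Cdkn3, against a median of 52.4% over all windows, and a GC-rich box is found more often in GC-rich sequence. A match is a description of the letters and no evidence of binding.

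**Figure D1:**
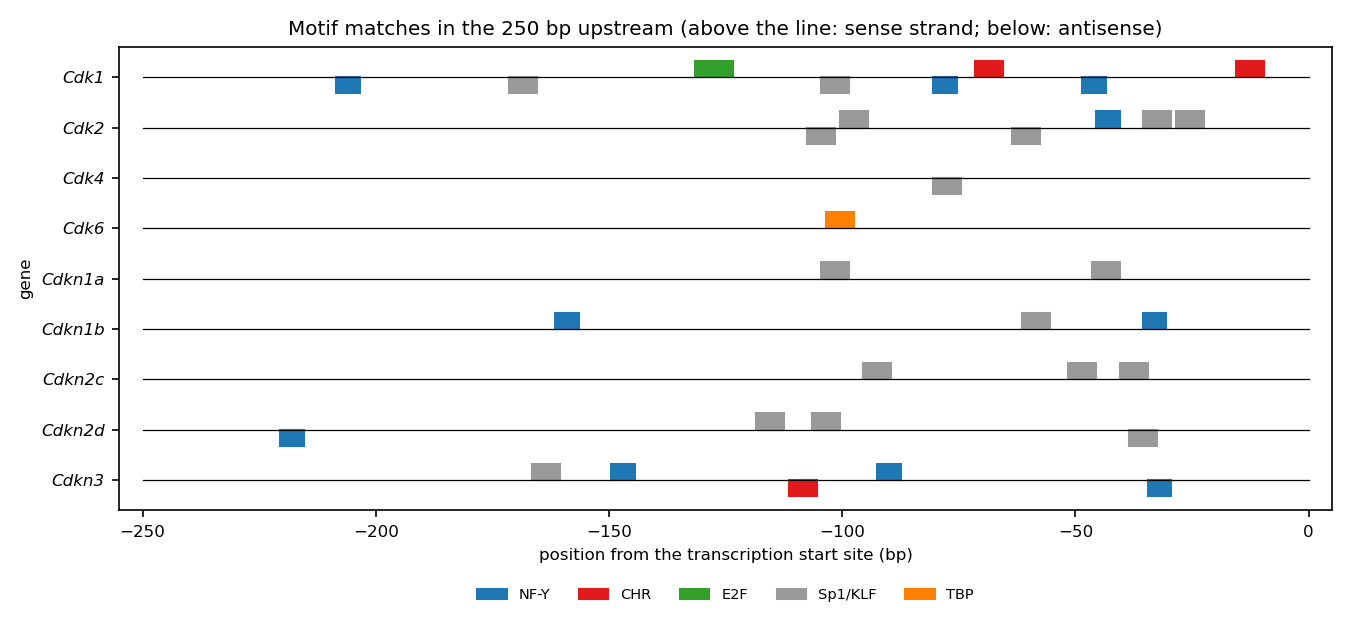
Positions of the searched boxes in the 9 member promoters, with bases from the start site on the x axis and 1 row per gene. The NF-Y and CHR boxes of Cdk1 and Cdkn3 lie near each other, while Cdkn2c and Cdkn1a show GC boxes only.

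Library totals ran from 6865903 to 10287876 counts, and 3 counts, the limit that a count of 0 allows, corresponded to 0.275 to 0.457 CPM, the count scaled to library size. CPM values below use the TMM factors of edgeR. The p-values are from its quasi-likelihood test, adjusted over all 12230 genes by Benjamini and Hochberg's method. A gene is called where the adjusted p is below 0.05. Mki67, which encodes Ki67, checked the sort: it stood at 13.4 and 11.0 CPM in the adult libraries, 242 to 463 in the 4 Ki67-negative libraries and 920 to 1107 in the 4 Ki67-positive ones, so the reporter-negative cells were far from the adult level. The 6 microglial marker genes summed to 5508 to 7297 CPM in all groups. Markers of border macrophages summed to 58.8 to 68.3 CPM in the adult libraries, 577 to 849 at PND8 and 26.1 to 42.4 in repopulation. Mrc1 carried most of the PND8 sum, at 520 to 834 CPM against 49.7 and 52.7 in adult libraries. Cd163 overlapped adult, at 2.31 to 9.08 CPM at PND8 against 4.05 and 8.31. Lyve1, Pf4 and Cbr2 were higher at PND8 than in adult, at 27.1 CPM or less, and Lyve1 was at 0 in repopulation. Lyve1, Pf4 and Cd163 were lower in PND8 Ki67-positive than in PND8 Ki67-negative libraries, while Mrc1 was higher. Markers of monocytes and neutrophils summed to 61.6 to 211 CPM in the adult libraries and 3.49 to 9.26 elsewhere. Summed endothelial markers were lower in Ki67-positive than in Ki67-negative libraries, at 36.8 to 37.6 against 67.8 to 71.9 CPM at PND8 and 18.3 to 23.1 against 28.5 to 37.0 in repopulation. Pecam1 carried most of this sum, at 33.5 and 33.3 against 65.6 and 69.8 CPM at PND8 and 20.8 and 16.8 against 33.7 and 25.4 in repopulation. Flt1 ran the other way at PND8, at 2.20 and 2.20 CPM in positive against 1.11 and 0.826 in negative libraries. Cldn5 and Ly6c1 were at most 0.275 CPM in any library. Astrocyte markers summed to 237 to 245 CPM in adult, 404 to 414 in repopulating positive and 490.4 to 557 in repopulating negative libraries, while the PND8 replicates split, at 83.7 against 428 in negative and 53.2 against 373 in positive cells. Slc1a3 carried most of this, with 70.5 and 38.7 CPM in the first PND8 libraries (negative, then positive) and 421 and 362 in the second. Erythroid markers summed to 16.6 to 55.4 CPM at PND8, 0.463 to 5.01 in adult and 0.416 to 1.37 in repopulation, where Hba-a1 and Hbb-bt were at 0. Oligodendrocyte genes lay between 49.2 and 88.0 CPM, lymphocyte genes between 17.3 and 56.0, neuronal genes between 1.83 and 8.99 and mural genes between 0.694 and 4.16. The part of these cells in the differences described here was not tested. The file headers carry number codes whose meaning is not stated: both adult libraries have 190710, which no other RNA group has, so code and group cannot be told apart there. Within PND8 and within repopulation, positive and negative libraries of the same number share a code.

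Between Ki67-positive and Ki67-negative cells at PND8, 5 members were called higher and 1 lower, where 5.90% of all tested genes were called (2.75% higher and 3.15% lower). Cdk1, Cdkn1b, Cdkn2c, Cdkn2d and Cdkn3 rose and Cdk2 fell. In repopulating cells, 4 members were called higher and none lower, where 2.74% of all genes were called (1.87% higher and 0.867% lower), and these were Cdk1, Cdkn2c, Cdkn2d and Cdkn3. The median log2 fold change of the 10 members was 0.34 at PND8 and 0.10 in repopulation, against -0.03 and 0.00 over all genes. The members did not move as one at PND8, where Cdk2 fell while 5 others rose. In bulk samples a group with fewer cells that express a gene and a group with less RNA of it per cell cannot be told apart.

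Against the adult cells, the PND8 Ki67-positive group had 8 members higher and 1 lower, where 49.5% of all genes were called (25.1% higher and 24.3% lower). The PND8 Ki67-negative group had 8 higher and 2 lower, against 46.8% of all genes (25.4% and 21.4%). The repopulating Ki67-positive group had 8 higher and 1 lower, against 44.9% (23.9% and 21.0%), and the Ki67-negative group 9 higher and 1 lower, against 39.2% (21.5% and 17.6%). These 4 comparisons share the same 2 adult libraries, and calls in all of them were common across the transcriptome, so the size of the changes separates the members more than the calls do. The members ranged from fold changes of over 20 for Cdk1, Cdkn2c and Cdkn3 in Ki67-positive cells to values near 1 for Cdkn1b and Cdk6, and Cdkn1c alone fell in all 4.

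**Figure D2:**
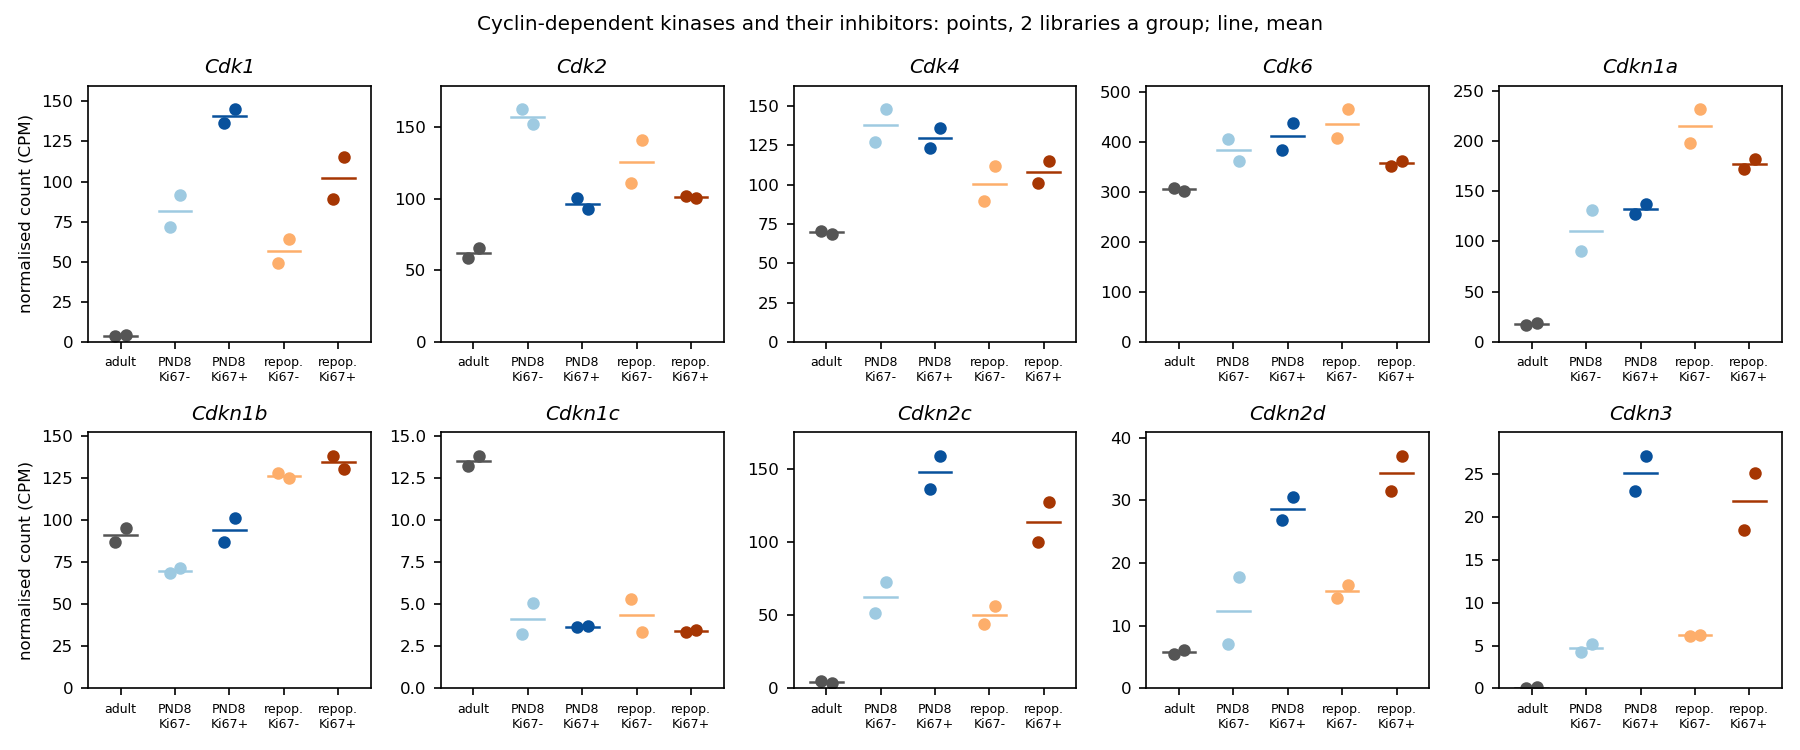
CPM of each member in the 10 RNA libraries, 1 panel per gene with its own linear y axis from 0 and the 5 groups on the x axis. Points are libraries and lines are means of 2. Cdk1, Cdkn2c and Cdkn3 climb from adult through Ki67-negative to Ki67-positive cells, Cdk2 is highest in PND8 Ki67-negative cells and Cdkn1c is highest in adult cells.

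Among the kinases, Cdk1 (chromosome 10, 69335146 to 69352912, minus strand, mm10) had the widest range. It stood at 3.70 and 4.15 CPM in the adult libraries, 71.9 and 91.6 in PND8 Ki67-negative cells and 136 and 145 in PND8 Ki67-positive cells. Repopulating cells had 49.2 and 64.3 CPM in the Ki67-negative and 89.3 and 115 in the Ki67-positive libraries. The adult libraries lay far below all others, and within each model the positive and negative groups did not overlap. From negative to positive cells Cdk1 rose by 0.78 ± 0.15 (log2, SE) at PND8, with an adjusted p of 0.00674, and in repopulation by 0.85 ± 0.16, with an adjusted p of 0.00790. Within libraries of 1 header code the differences were 0.92 and 0.66 at PND8 and 0.86 and 0.84 in repopulation. Against adult cells it was higher by 5.16 ± 0.21 in the positive cells of PND8 and 4.69 ± 0.21 in those of repopulation, and by 4.38 ± 0.22 and 3.84 ± 0.22 in the Ki67-negative ones.

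Cdk2 (chromosome 10, 128697939 to 128705051, minus strand), the kinase of the G1/S transition, ran the other way between the sorted groups. Its CPM was 58.9 and 65.6 in adult, 163 and 152 in PND8 Ki67-negative and 101 and 92.6 in PND8 Ki67-positive libraries. In repopulation it was 111 and 141 in Ki67-negative and 102 and 101 in Ki67-positive libraries. All 8 libraries of the dividing models lay above both adult ones, and in each model both negative libraries lay above both positive ones. Cdk2 fell by 0.70 ± 0.11 on the log2 scale from negative to positive cells at PND8 (adjusted p = 0.00188). The repopulation difference of -0.31 ± 0.11 was not called (adjusted p = 0.195), with library pairs of 1 code at -0.12 and -0.49. Once header code entered the fit it was called (-0.30, adjusted p = 0.0358). Over the adult level it was higher by 1.34 ± 0.12 in PND8 Ki67-negative and 0.63 ± 0.12 in PND8 Ki67-positive cells, and by 1.01 ± 0.12 and 0.70 ± 0.12 in the same groups of repopulation.

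Cdk4 and Cdk6, the partners of the D-type cyclins, differed little by Ki67. Cdk4 (chromosome 10, 127063535 to 127067288, plus strand) had 70.8 and 68.7 CPM in adult, 127 and 148 in PND8 Ki67-negative and 123 and 136 in PND8 Ki67-positive libraries. Its repopulation values were 89.7 and 112 in Ki67-negative and 101 and 115 in Ki67-positive libraries, so sorted groups overlapped in both models while the adult libraries stayed below all others. The log2 difference between positive and negative cells was -0.09 (95% interval -0.34 to 0.16) at PND8 and 0.11 (-0.15 to 0.36) in repopulation, neither called. Against adult cells Cdk4 was higher by 0.98 ± 0.12 and 0.89 ± 0.12 in PND8 Ki67-negative and Ki67-positive cells and by 0.53 ± 0.12 and 0.63 ± 0.12 in repopulating ones, of which the first was lost without the second Ki67-negative library (0.37, adjusted p = 0.0618). Its 3′ end lies 2 bp from that of Tspan31, which runs towards it on the opposite strand, and the strand setting of the counting is not stated.

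Cdk6 (chromosome 5, 3343893 to 3531005, plus strand) stood at 309 and 303 CPM in adult, 407 and 362 in PND8 Ki67-negative and 385 and 439 in PND8 Ki67-positive libraries. Repopulating cells had 409 and 466 CPM in the Ki67-negative and 352 and 362 in the Ki67-positive libraries. Both repopulating positive libraries thus lay below both negative ones, and the PND8 groups overlapped. The differences by Ki67 were 0.10 ± 0.10 at PND8 and -0.29 ± 0.10 in repopulation, with adjusted p of 0.633 and 0.144. The repopulation value was called once header code entered the fit (-0.29, adjusted p = 0.0342) and without the filter on low counts (adjusted p = 0.0326). Cdk6 was higher than adult in 3 groups, by 0.33 ± 0.10, 0.43 ± 0.10 and 0.51 ± 0.10 in PND8 Ki67-negative, PND8 Ki67-positive and repopulating Ki67-negative cells. Repopulating Ki67-positive cells differed from adult by 0.22 ± 0.10, which was not called (adjusted p = 0.0734). That value was called with only the compared groups in the edgeR fit (0.23, adjusted p = 0.00466) and without the filter on low counts (0.23, adjusted p = 0.0388). The PND8 Ki67-negative call was lost without either adult library or the first library of its own (adjusted p from 0.0530 to 0.0832).

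Of the INK4 inhibitors, Cdkn2c (chromosome 4, 109660876 to 109666756, minus strand), which encodes p18, was among the genes that moved most. Its CPM was 5.20 and 3.67 in adult, 51.9 and 72.6 in PND8 Ki67-negative and 137 and 159 in PND8 Ki67-positive libraries. In repopulation it was 44.2 and 56.2 in Ki67-negative and 100.4 and 127 in Ki67-positive libraries. The 3 levels, adult, negative and positive, did not overlap in either model. From negative to positive cells Cdkn2c rose by 1.24 ± 0.17 (log2) at PND8 and 1.19 ± 0.18 in repopulation, with adjusted p of 7.031e-04 and 0.00191. Against adult cells it was higher by 5.05 ± 0.23 and 4.67 ± 0.24 in the positive and by 3.81 ± 0.24 and 3.48 ± 0.24 in the negative groups, PND8 before repopulation.

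Cdkn2d (chromosome 9, 21288464 to 21291209, minus strand), which encodes p19, moved the same way at a lower level. It had 5.55 and 6.11 CPM in adult, 7.05 and 17.7 in PND8 Ki67-negative and 26.9 and 30.5 in PND8 Ki67-positive libraries. Repopulating libraries had 14.5 and 16.5 CPM in Ki67-negative and 31.6 and 37.1 in Ki67-positive cells. The positive libraries lay above all negative ones, and the first PND8 negative library stood near the adult level. Cdkn2d rose by 1.18 ± 0.29 at PND8 and 1.15 ± 0.29 in repopulation, where the adjusted p was 0.0265 and 0.0499. Same-code differences were 1.93 and 0.79 at PND8 and 1.13 and 1.17 in repopulation. Leaving out any 1 of the 4 repopulating libraries ended the call there (adjusted p from 0.0846 to 0.360). Against adult it was 4.91-fold and 5.87-fold higher in positive cells and 2.17-fold and 2.64-fold higher in negative cells (SE of 0.32 to 0.33 on the log2 scale), PND8 first. The PND8 negative log2 value was 0.25 (adjusted p = 0.465) without the second library of that group, and its call was also lost without either adult library.

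The other INK4 genes, Cdkn2a and Cdkn2b, were also above the adult level in the other groups. Cdkn2a, which encodes p16 and p19ARF from overlapping transcripts that a gene count does not separate, had 0.347 and 0.122 CPM in adult libraries, 3.09 and 4.77 in PND8 Ki67-negative and 9.14 and 9.71 in PND8 Ki67-positive ones. Its repopulation values were 8.33 and 12.5 CPM in Ki67-negative and 18.4 and 20.0 in Ki67-positive libraries, the highest of all groups. Cdkn2a rose by 1.23 from negative to positive cells at PND8 (adjusted p = 0.0250), while its difference by Ki67 in repopulation was not called. It was higher in repopulation than at PND8 by 1.02 in positive and 1.36 in negative cells (adjusted p = 0.0101 and 0.00316). Cdkn2b, which encodes p15, ranged from 1.34 to 1.39 CPM in adult and from 2.94 to 6.62 in the other libraries, and was called higher than adult in all 4 groups, by 1.24 to 2.11.

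Among the Cip/Kip inhibitors, Cdkn1a (chromosome 17, 29093769 to 29100722, plus strand), which encodes p21, was far above adult in every other group without following Ki67. The adult libraries had 16.5 and 18.3 CPM, PND8 Ki67-negative 90.0 and 132, and PND8 Ki67-positive 128 and 138. Repopulating Ki67-negative libraries had 198 and 232 CPM and Ki67-positive ones 172 and 182, so both negative libraries lay above both positive ones there, while the PND8 groups overlapped. Neither difference by Ki67 was called, 0.25 ± 0.14 at PND8 (adjusted p = 0.351) and -0.28 ± 0.14 in repopulation (adjusted p = 0.362). At PND8 the value became 0.59 (adjusted p = 0.00849) without the second Ki67-negative library, and the call also appeared with the header code as a term (0.27, adjusted p = 0.0475). Cdkn1a was higher than adult by 2.67 ± 0.17 and 2.93 ± 0.17 in PND8 Ki67-negative and Ki67-positive cells, and by 3.62 ± 0.17 and 3.34 ± 0.17 in repopulating ones.

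Cdkn1b (chromosome 6, 134920401 to 134925525, plus strand), which encodes p27, kept a narrow range of 68.3 to 138 CPM. Adult libraries had 86.7 and 95.1 CPM, PND8 Ki67-negative 68.3 and 71.8, PND8 Ki67-positive 86.8 and 101, repopulating Ki67-negative 128 and 125 and repopulating Ki67-positive 138 and 131. PND8 negative libraries were thus the lowest and repopulating libraries the highest. Cdkn1b rose by 0.42 ± 0.10 from negative to positive cells at PND8 (adjusted p = 0.0223) and differed by 0.09 ± 0.10 in repopulation (adjusted p = 0.727). Against adult it fell by 0.37 in PND8 Ki67-negative cells, a call lost without the second adult library (adjusted p = 0.0859), differed by 0.05 ± 0.10 in PND8 Ki67-positive cells, and was higher by 0.57 ± 0.10 and 0.48 ± 0.10 in repopulating positive and negative cells.

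Cdkn1c (chromosome 7, 143458339 to 143461050, minus strand), an imprinted gene that encodes p57, was the only member lower than adult in all 4 groups. It had 13.2 and 13.8 CPM in adult libraries and between 3.22 and 5.31 CPM in the other 8, which are 22 to 55 counts each. The fall from adult was between 1.61 and 1.98 on the log2 scale (SE 0.30 to 0.32, adjusted p from 2.158e-04 to 0.00108). Positive and negative groups overlapped in both models, with log2 differences of -0.19 ± 0.33 and -0.38 ± 0.35 that were not called.

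Cdkn3 (chromosome 14, 46760541 to 46771521, plus strand), the phosphatase, was almost absent from the adult counts. The adult libraries held 0 and 1 counts of it, PND8 Ki67-negative ones 34 and 57, PND8 Ki67-positive ones 209 and 235, repopulating Ki67-negative ones 59 and 41 and repopulating Ki67-positive ones 160 and 175. In CPM the positive libraries stood at 23.0, 27.2, 18.5 and 25.2 and the negative ones at 4.21, 5.23, 6.14 and 6.25, with no overlap. Cdkn3 had the largest difference by Ki67 of the 10 members in both models, rising by 2.39 ± 0.25 at PND8 and 1.81 ± 0.25 in repopulation, with adjusted p of 8.118e-05 and 0.00102. The repopulation call was lost with limma on log2(TPM + 0.1), where the difference was 1.76 (adjusted p = 0.105). The summed counts over the 2 libraries of a group, relative to the single adult count and to library size, gave ratios of 421 (95% counting interval 75.3 to 16683) for PND8 Ki67-positive, 362 (64.4 to 14323) for repopulating Ki67-positive, 80.7 (14.1 to 3221) for PND8 Ki67-negative and 104 (18.3 to 4151) for repopulating Ki67-negative cells. The intervals cover counting error only.

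**Figure D3:**
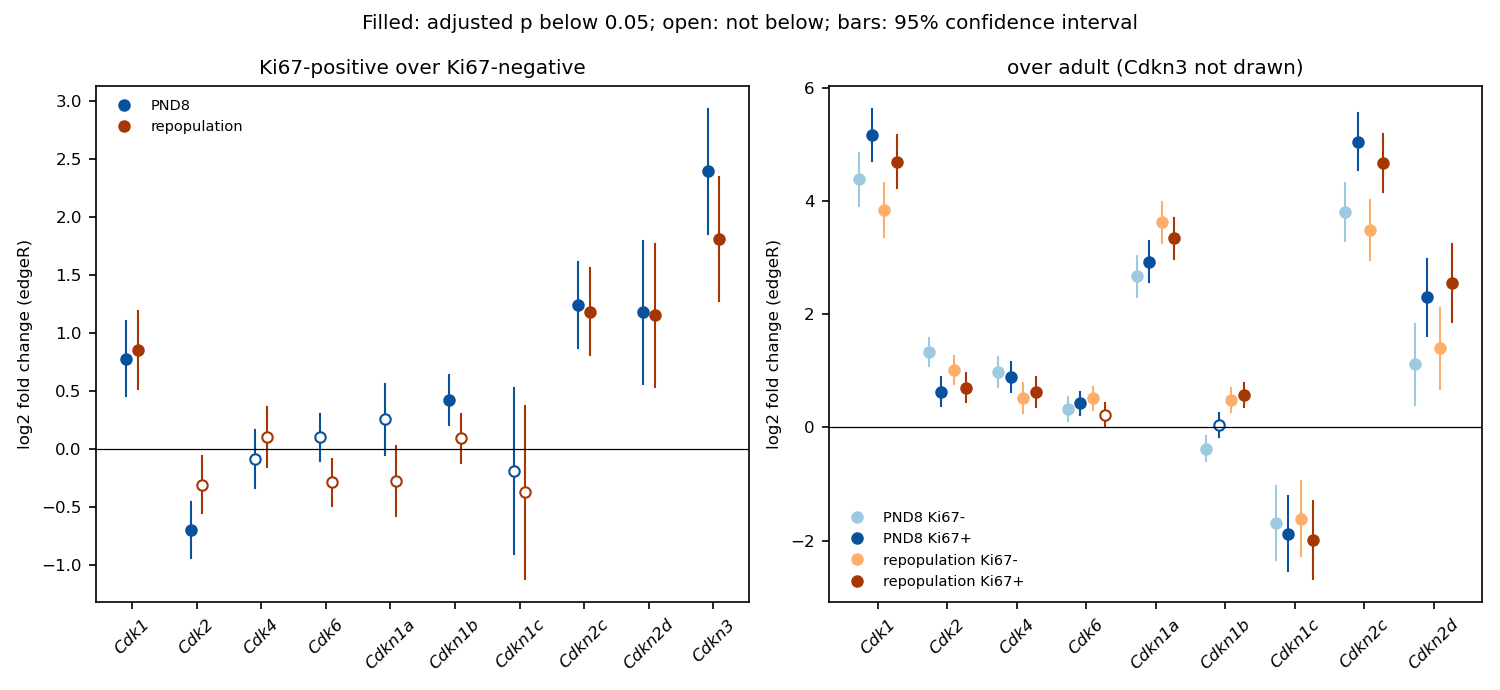
Log2 fold change of each member from edgeR with its 95% interval, for Ki67-positive over Ki67-negative cells (left panel) and for each group over adult (right panel, without Cdkn3). Filled points are called. Cdkn3, Cdkn2c, Cdkn2d and Cdk1 lie above 0 and are filled in both Ki67 comparisons, Cdk2 lies below 0, and Cdkn1c is below 0 in every comparison with adult.

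Leaving out single libraries changed how many members were called by Ki67. At PND8 the 6 calls fell to 2, Cdkn2c and Cdkn3, without the second Ki67-positive library, where Cdk1 and Cdk2 had adjusted p of 0.0623 and 0.0534. Cdkn1b was also lost without the first Ki67-negative library (0.0530) and Cdkn2d without the first Ki67-positive one (0.0635). In repopulation the 4 calls fell to 1, Cdkn3 (Cdk1 and Cdkn2c at adjusted p of 0.145 and 0.0543), without the first Ki67-negative library, and to 2 without the second Ki67-positive library, where Cdk1 and Cdkn2d were lost. Other settings ended calls too. With only the compared groups in the fit, Cdkn1b (adjusted p = 0.0810) and Cdkn2d (0.122) were lost at PND8. With limma on log2(TPM + 0.1), Cdkn2d was lost at PND8 (0.0559) and Cdk1, Cdkn2d and Cdkn3 in repopulation (0.0560, 0.151 and 0.105), and only Cdkn2c kept its call there. With library sizes alone, Cdkn2d was lost in repopulation (0.0563). With 2 libraries a group, the group that loses 1 is assumed to vary like the others.

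Repopulating and PND8 cells of the same Ki67 class were compared next. In Ki67-positive cells 2 members were higher and 1 lower in repopulation, where 30.9% of all genes were called (16.7% and 14.2%). That split was 2040 genes higher and 1738 lower, and 1730 and 2222 when libraries were scaled by their size alone. Cdkn1a was higher by 0.42 ± 0.14 (adjusted p = 0.0385), Cdkn1b was higher by 0.52 ± 0.10 (adjusted p = 0.00136) and Cdk1 was lower by 0.46 (log2 fold change -0.46 ± 0.15, adjusted p = 0.0303). In Ki67-negative cells 2 were higher and 3 lower, where 36.6% of all genes were called, 2203 higher and 2270 lower, or 1829 and 3064 with library size alone. Cdkn1a and Cdkn1b were higher by 0.95 ± 0.14 and 0.85 ± 0.10, and Cdk1, Cdk2 and Cdk4 had log2 fold changes of -0.54 ± 0.16, -0.33 ± 0.11 and -0.46 ± 0.12. In positive cells Cdkn2c (-0.38 ± 0.17, adjusted p = 0.103), Cdk4 (-0.26 ± 0.12, 0.111) and Cdk6 (-0.20 ± 0.10, 0.124) were not called, but all 3 were called lower in the fit that includes header code (-0.72, -0.48 and -0.27, adjusted p = 5.081e-05, 3.650e-04 and 0.0436). The Cdkn2c difference was also called with the replicate block (0.0106), without the filter (0.00923) and with only the compared groups (0.0227), and that of Cdk4 with the replicate block (0.0298). In negative cells Cdkn2c was not called (-0.32 ± 0.18, adjusted p = 0.174), and it was called with the header code (-0.65, 2.204e-04) and the replicate block (-0.31, 0.0468). With the header code Cdk1 was lower by more, at -0.77 in positive and -0.83 in negative cells. A single header code held a library of each of these 4 groups. Within it Cdkn1a was 172 against 138 CPM in positive and 198 against 132 in negative cells, repopulation first, and Cdk1 was 89.3 against 145 and 49.2 against 91.6. In positive cells only the Cdkn1b call held without any 1 library: that of Cdkn1a was lost without each of the 4 (adjusted p from 0.103 to 0.219), under library-size scaling (0.0860) and once header code entered the fit (0.18, adjusted p = 0.213), and that of Cdk1 without all but the second repopulating library (0.0657 to 0.233). In negative cells Cdkn1a and Cdkn1b held, while the calls of Cdk1, Cdk2 and Cdk4 were lost without the first repopulating library (0.183, 0.363 and 0.125) or the second PND8 library (0.157, 0.0538 and 0.0785). The Cdk2 call was also lost with DESeq2 (0.0673), with RLE size factors (0.0510) and with only the compared groups (0.117). It was lost as well without the first PND8 Ki67-negative library, where the log2 fold change was -0.28. Cdkn2d was not called between the Ki67-negative groups (0.28 ± 0.30). Its log2 fold change was 1.15 without the second PND8 Ki67-negative library, which had 17.7 CPM against 7.05 in the first.

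Whether the difference by Ki67 itself differed between the models was tested as an interaction. By edgeR, 0 of 12230 genes passed (0.00%), with 613 genes and 4 members below an unadjusted p of 0.05, while DESeq2 called 3 genes and no member. The 4 members were Cdk2 (0.39 ± 0.16, repopulation minus PND8), Cdk6 (-0.39 ± 0.14), Cdkn1a (-0.53 ± 0.20) and Cdkn1b (-0.33 ± 0.14), each with an adjusted p of 0.960. The Cdk1 interaction was 0.07 with a 95% interval of -0.39 to 0.54, and that of Cdkn2c -0.06 with an interval of -0.58 to 0.47. A difference between the 2 models in the response of single members was therefore not shown by this test.

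Levels of different members can be set side by side in TPM, the authors' value per transcript length. In adult cells Cdk4 was the highest at 74.5 ± 1.84 TPM (SD, n = 2), followed by Cdkn1b at 57.1 ± 3.51, Cdk6 at 40.0 ± 0.641 and Cdk2 at 39.1 ± 2.89, of which Cdk6 and Cdk2 overlapped. Cdk1 had 1.36 ± 0.107 TPM there and Cdkn3 the lowest value. In PND8 Ki67-positive cells Cdk4 was again highest at 138 ± 8.87 TPM, and Cdkn2c at 109 ± 11.3 and Cdkn1a at 104 ± 5.00 came next and overlapped each other. In both repopulating groups Cdkn1a was the highest member, at 162 ± 12.6 TPM in Ki67-negative and 133 ± 3.48 TPM in Ki67-positive cells. Cdkn1c was the lowest member in all 4 groups other than adult, between 2.56 and 3.30 TPM on average. For Cdk2, Cdkn1c and Cdkn3 the TPM table lists another transcript than the count table.

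Ratios of TPM within a library do not depend on its depth. Cdk1 per Cdk2 was 0.0347 and 0.0350 in the adult libraries, 0.240 to 0.329 in the 4 Ki67-negative ones, 0.739 and 0.858 in PND8 Ki67-positive and 0.481 and 0.627 in repopulating Ki67-positive ones. The summed INK4 members (Cdkn2c and Cdkn2d) per summed Cdk4 and Cdk6 were 0.0902 and 0.0883 in adult, 0.247 to 0.364 in Ki67-negative and 0.728 to 0.812 in Ki67-positive libraries, with no overlap between the 3 classes. RNA of INK4 inhibitors was thus nearest to that of their target kinases in the Ki67-positive cells. Cdkn1a per Cdkn1b was 0.240 and 0.243 in adult and 1.56 to 2.33 in all other libraries, which did not separate by Ki67. The summed Cip/Kip members per summed Cdk1 and Cdk2 were 2.04 and 1.99 in adult, 0.902 and 1.19 in PND8 Ki67-negative and 1.42 and 1.60 in PND8 Ki67-positive libraries. In repopulation they were 2.79 and 2.37 in negative and 2.36 and 2.21 in positive libraries, above both PND8 groups. These are ratios of RNA, and no protein was measured.

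**Figure D4:**
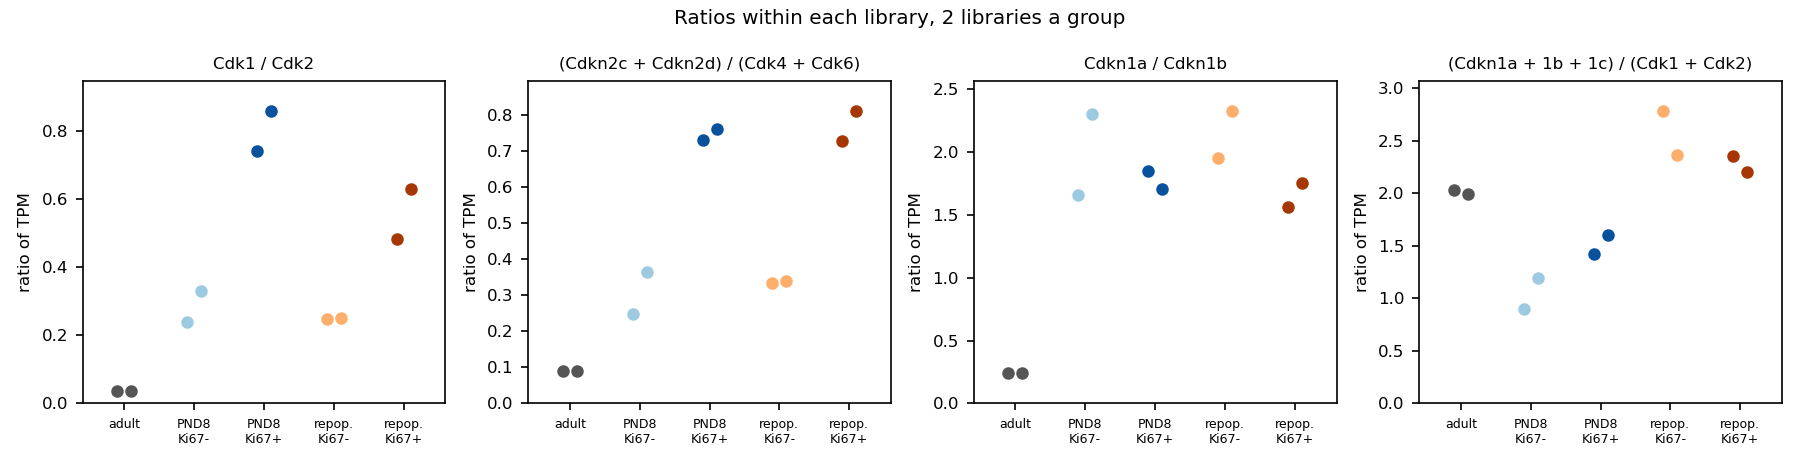
Ratios of TPM in each RNA library (points) by group, with linear y axes from 0, in panels for Cdk1 per Cdk2, INK4 members per Cdk4 and Cdk6, Cdkn1a per Cdkn1b, and Cip/Kip members per Cdk1 and Cdk2. The first 2 ratios rise from adult to Ki67-negative to Ki67-positive libraries, and Cdkn1a per Cdkn1b separates adult from all other libraries.

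The genes that act on or through these kinases were counted from lists by role. Counts by Ki67 in each list stand beside the shares of all genes called. These were 2.75% higher and 3.15% lower at PND8, and 1.87% higher and 0.867% lower in repopulation. Of 8 cyclins, 3 were higher and 3 lower in Ki67-positive cells at PND8 and 3 were higher and 1 lower in repopulation. The B-type cyclins, which activate CDK1, were higher (Ccnb1 by 2.46 and 2.24, Ccnb2 by 2.40 and 2.64, PND8 before repopulation), and Ccna2 was higher by 1.29 and 1.37. The E-type cyclins, which activate CDK2, were lower: Ccne2 had log2 fold changes of -1.65 and -1.12 and Ccne1 of -1.39 at PND8. The CPM of Ccne2 was 36.9 and 41.3 in PND8 Ki67-negative and 13.1 and 11.8 in Ki67-positive libraries, and 40.9 and 61.3 against 21.2 and 25.6 in repopulation. Cdk2 and its E-type partners were therefore both higher in the Ki67-negative cells of PND8, and Cdk1 and its B-type partners in the Ki67-positive cells. The median log2 fold change of the cyclins was -0.45 and -0.33, since their directions differed.

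Among 11 enzymes and subunits that switch the kinases on or off, 4 were higher at PND8 and 3 in repopulation, and none lower. Cdc25b and Cdc25c, phosphatases that activate CDK1, were higher by 3.63 and 3.19 at PND8 and by 2.99 and 2.40 in repopulation. The small subunit gene Cks1b was higher by 1.01 and 1.54, and Cks2 by 1.32 at PND8. Cdc25b had 8.29 and 11.6 CPM in PND8 Ki67-negative and 110 and 140 in PND8 Ki67-positive libraries, and 10.3 and 11.6 against 74.8 and 98.6 in repopulation. The adult libraries had 6.25 and 5.74 CPM, close to the Ki67-negative cells, unlike Cdk1 itself.

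Of 12 ubiquitin ligase parts that degrade inhibitors or cyclins, 2 were higher and 1 lower in each model. Cdc20 and Fzr1, which direct the anaphase-promoting complex, were higher, Cdc20 by 2.81 and 2.83 and Fzr1 by 0.65 and 0.62. Dtl, the substrate receptor through which CRL4 degrades p21 in S phase, had log2 fold changes of -1.52 and -0.88. Of 13 RB and E2F genes none was higher and 4 and 2 were lower: E2f1 had -1.18 and -0.87, E2f3 -0.40 and -0.41, and E2f2 and Tfdp1 -0.94 and -0.44 at PND8. E2f1, an activator of S phase genes, had 122 and 123 CPM in PND8 Ki67-negative and 62.0 and 45.9 in Ki67-positive libraries, 62.8 and 84.1 against 35.2 and 44.9 in repopulation, and 4.97 and 4.15 in adult. The other 13 tested kinases of the CDK family had no call by Ki67 in either model. Against adult, 3 of these were higher and 4 lower in PND8 positive cells (25.1% and 24.3% of all genes). In PND8 negative cells 4 were higher and 4 lower (25.4% and 21.4%). In repopulation 1 was higher and 3 lower in positive cells (23.9% and 21.0%), and 3 and 3 in negative cells (21.5% and 17.6%). Their median ran from -0.09 to -0.06. Among those that rose, Cdk18 was higher by 1.55 and 1.93 in PND8 positive and negative cells and Cdk14 by 0.87 and 1.00 in the repopulating ones.

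Cdkn1a was set beside 20 other p53 target genes. By Ki67, 1 was higher at PND8 (Ccng1, by 0.38, adjusted p = 0.0242) and none was called in repopulation. Against adult, 11 were higher and 4 lower in PND8 Ki67-positive cells, 10 and 5 in PND8 Ki67-negative cells, and 13 and 3 in each repopulating group, where 49.5%, 46.8%, 44.9% (positive) and 39.2% (negative) of all genes were called in either direction. The median was 0.54, 0.28, 0.60 (positive) and 0.72 (negative), against medians of all genes between -0.01 and 0.03. Set against PND8, repopulating positive cells had 6 higher and 4 lower (30.9% of all genes called) and repopulating negative cells 11 and 2 (36.6%), with Fas, a death receptor, higher by 1.99 and 2.69 and Pmaip1, which encodes Noxa, at -1.36 and -1.49. Phlda3 had 0 and 0.244 CPM in adult and 4.33 to 9.60 CPM in the other libraries. The list was chosen with earlier results of these data known, and its part in the Cdkn1a level was not tested. Of 14 immediate early and stress genes, which can rise during cell isolation, none was called by Ki67. In repopulating positive and negative cells 9 and 10 were lower than in adult and none higher, where 21.0% and 17.6% of all genes were lower. Against PND8, 6 were lower in repopulating positive and 9 in repopulating negative cells, and none higher, where 14.2% and 18.6% of all genes were lower. The first PND8 libraries stood apart, with Egr1 at 581 CPM in negative cells against 55.2 in the second negative library, and Fos at 297 and 170 (negative, then positive) against 78.9 and 14.2. The part of this split in the PND8 values of the members was not tested. In the PND8 groups 1 was higher than adult in each, and 5 were lower in positive and 2 in negative cells. Of all genes, 25.1% were higher and 24.3% lower there in positive cells, and 25.4% and 21.4% in negative cells.

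Across the 10 RNA libraries, the genes whose log2 CPM was most like that of each member were named by Pearson's r, as a description over libraries that share 5 groups. For Cdk1 these were Spc24, Shcbp1 and Nes (r = 0.998, 0.997 and 0.997), for Cdkn2c Incenp, Kif4 and Nusap1 (0.999, 0.998 and 0.998) and for Cdkn3 Kif23, Hmmr and Prr11 (0.997 each). Cdk2 had Rfc1 and Msh6 among them (0.990 and 0.979), and Cdk4 Mif, Tpi1 and Ogdh (0.988, 0.984 and 0.984). For Cdkn1a they were AB124611, Myo5a and Fads2 (0.998, 0.989 and 0.988), for Cdkn1b Fam129a, Arap1 and Myo1g (0.982, 0.975 and 0.974) and for Cdkn1c Prr14, Orc4 and Zfp111 (0.983, 0.973 and 0.971). Cdkn2d had Uqcc2, Atp5k and Espl1 (0.981, 0.978 and 0.975), and Cdk6, with the lowest values, Slc6a6, P2ry6 and 2610507B11Rik (0.924, 0.907 and 0.891). Among the members, Cdk1 and Cdkn2c had an r of 0.990 with each other, and Cdk1 and Cdkn1c one of -0.949.

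Promoter marks were read as deposited peaks within 1 kb of each member's start site. H3K27ac marks active promoters and enhancers, H3K4me3 marks promoters that are open to transcription, Rpb2 is a core subunit of RNA polymerase II, and ATAC-seq reads accessible DNA. In adult microglia all 10 members had an H3K4me3 peak in both libraries, as did 59.1% of the 20999 genes, and all 10 had an ATAC peak, as did 56.0%, with 53.6% of genes holding both marks. The H3K4me3 count fell once the lowest 25% of peak scores were left out, as given at the end. The members that lost it are not named here. Fewer had H3K27ac in both adult libraries, 7 members against 40.8% of genes, and the missing ones were Cdk1, Cdkn3 and Cdkn1c. Rpb2 was listed in both adult libraries at 8 members, all but Cdk1 and Cdkn3, against 28.1% of genes. In each of the 5 other H3K27ac groups 9 members had a peak in both libraries, all but Cdkn1c, where 43.8% (cuprizone Ki67-negative), 45.8% (cuprizone Ki67-positive), 48.1% (PND8 Ki67-negative), 49.2% (PND8 Ki67-positive) and 47.2% (repopulation Ki67-positive) of genes did. The single PND8 Ki67-positive library of Rpb2 had a peak at all 10 (48.4% of genes), and so had the single ATAC libraries of PND8 (58.4%) and repopulation (60.8%).

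Cdk1 and Cdkn3 thus shared 1 pattern, H3K27ac in neither adult library and in all 10 others, which 101 genes had (0.481% of all). Rpb2 in neither adult library but in that of PND8 was more common, at 10.8% of genes, and adult H3K4me3 and ATAC peaks with no adult H3K27ac or Rpb2 occurred at 7.84%. All of these together held for 52 genes (0.248%), among them Cdk1 and Cdkn3. The pattern was put together after these 2 members' marks were seen, so it carries no test. H3K27ac in all 12 libraries, by contrast, was listed at 7 members (Cdk2, Cdk4, Cdk6, Cdkn1a, Cdkn1b, Cdkn2c and Cdkn2d) and at 38.1% of genes.

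At Cdk1 the nearest adult H3K27ac peaks lay 31690 and 31461 bp downstream of the start. In the other 10 libraries a peak of 2111 to 2735 bp was centred 1034 to 1133 bp downstream of the start. In PND8 Ki67-positive cells its authors' signal was above that of 94.5% and 93.4% of the peaks of its list. The peak was listed in the Ki67-negative cells of PND8 and cuprizone as well, so its presence did not separate cells by Ki67. At Cdkn3 the nearest adult peaks lay 16854 and 16898 bp upstream, and the peaks at its promoter were 500 to 2091 bp wide. The weakest, in the first cuprizone Ki67-negative library, was at the 2.59th percentile of its list. Adult library 2 shares its header code with the second PND8 libraries and the first repopulation library, and the contrast at both genes held within that code. The second adult Rpb2 library likewise shares its code with the PND8 one, but the header of the PND8 list names an H3K27ac input and that of the second adult list an Rpb2 input. The headers of the adult H3K27ac and Rpb2 lists carry the word Vehicle and a time that the labels do not explain, so a treatment of those adult mice cannot be told apart from the group. Peak lists hold only regions that passed a fold and false discovery threshold, so no listed peak is not the same as no mark.

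The adult ATAC peak of Cdkn3, at chr14:46760403-46760515, had a signal above 99.7% of peaks in its list, although the adult libraries held 0 and 1 counts of its RNA. By its coordinates it covers 2 of the 3 CCAAT cores and the CHR core printed above. The ATAC headers name no genome build, and mm10 was taken for them from the submitters' processing notes. The ATAC peaks at Cdkn3 in PND8 and repopulation ranked at 99.7% and 99.9%, and those of Cdkn2d at 99.5% in adult, 98.3% in PND8 and 99.0% in repopulation. The adult ATAC peak of Cdk1, at chr10:69352913-69353025, covers 2 of its CCAAT cores and both CHR cores, and ranked at 89.5%. In the Rpb2 list of PND8 the peak of Cdk1 ranked at 97.0%, that of Cdkn3 at 76.5% and that of Cdkn1a at 99.6%, the highest of the members. Ranks from lists of different length show no change between groups.

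**Figure D5:**
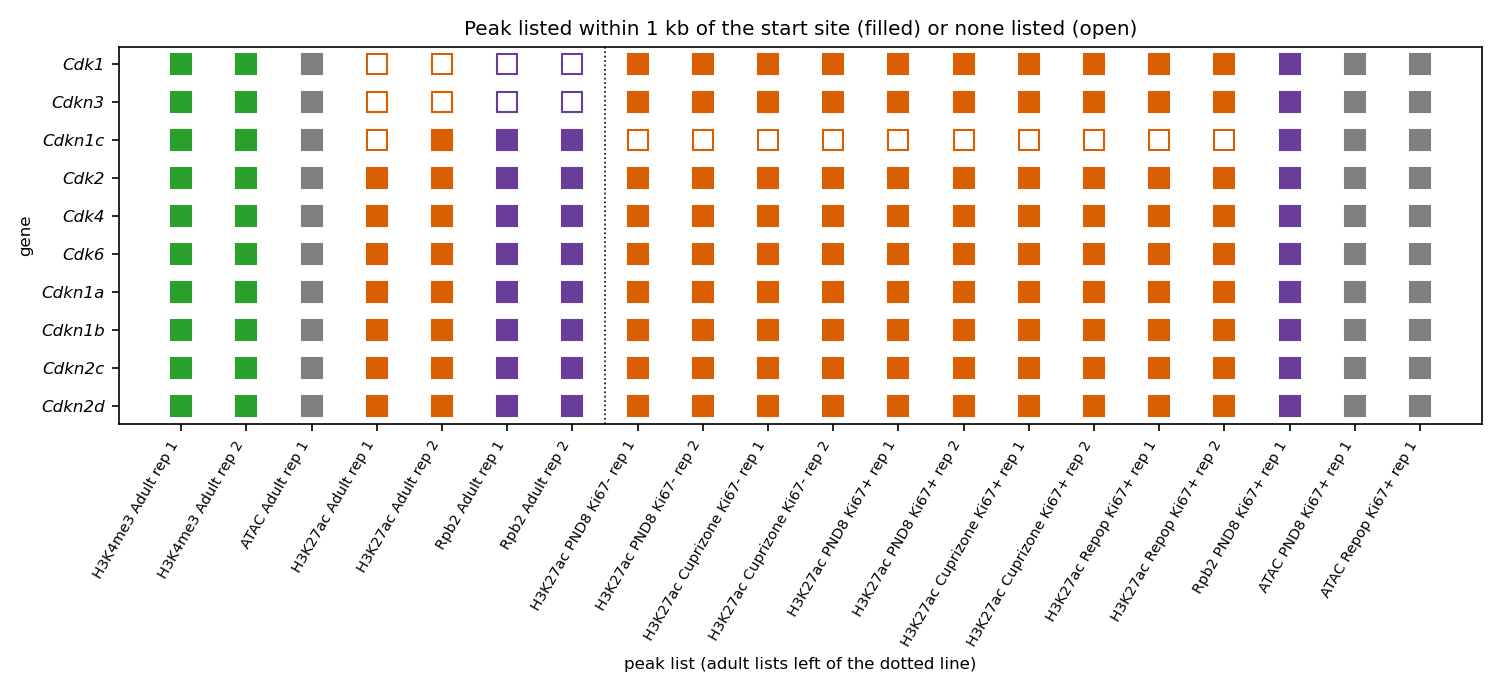
Deposited peaks within 1 kb of the start site of each member (rows) in each of the 20 peak lists (columns, adult lists left of the dotted line), coloured by assay, filled where a peak is listed and open where none is. Cdk1 and Cdkn3 are open in adult H3K27ac and Rpb2 and filled in all other lists, and Cdkn1c is open in all H3K27ac lists but 1.

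Cdkn1c, the member with its highest RNA in adult cells, had H3K27ac listed in 1 of 12 libraries, the second adult one, as a peak of 500 bp at the 2.97th percentile. It had H3K4me3 in both adult libraries, ATAC peaks in all 3 and Rpb2 peaks in all 3, with a percentile of at most 21.1 in adult and of 44.3 in PND8. At Cdkn1a the adult H3K27ac peaks began downstream of the start and did not cover it, with centres 998 and 1179 bp inside the gene. In 9 of the other 10 libraries the peak covered the start site, the exception being the first cuprizone Ki67-negative library. A second RefSeq start of Cdkn1a lies 2790 bp upstream, and H3K27ac within 1 kb of it was listed in both cuprizone Ki67-positive libraries and in the second PND8 Ki67-positive and repopulation libraries.

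The kinase and INK4 genes with steadier marks differed in peak width. At Cdkn2d the promoter peak was 796 and 928 bp wide in adult, 1669 and 1635 bp in PND8 Ki67-negative and 1889 and 2010 bp in PND8 Ki67-positive libraries. It was 5108 and 5180 bp wide in repopulating, 1145 and 1578 bp in cuprizone Ki67-negative and 1911 and 5188 bp in cuprizone Ki67-positive libraries. The 3 widest peaks thus came from repopulation and cuprizone, and the cuprizone replicates differed. In these 3 libraries a single peak covered all 2746 bp of the transcript, where every other H3K27ac library listed 2 separate peaks. Their widths are therefore not those of a promoter peak alone. At Cdkn2c the promoter peak was 2832 and 2718 bp wide in adult and between 2468 and 3231 bp in the other 10 libraries. Over the adult level, RNA of Cdkn2c was higher by 3.48 to 5.05 (log2) in PND8 and repopulating groups, and that of Cdkn2d by 1.12 to 2.55. Between repopulation and PND8 neither gene was called in the main edgeR fit. RNA of cuprizone mice was not measured. Cdk6, whose transcript spans 187113 bp, held 12 and 13 H3K27ac peaks along its length in adult, 12 to 16 in cuprizone, 14 to 18 in PND8 and 16 to 19 in repopulating libraries. Its H3K4me3 peak ranked above 99.8% of peaks in both adult lists. Libraries differed in how much of their signal was in peaks, with 32.60% to 69.66% of H3K27ac tags and 6.78% and 3.19% of adult against 8.57% of PND8 Rpb2 tags, and widths and peak numbers move with such differences, whose part here was not tested.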

How the data were processed

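RNA-seq counts per gene were deposited by the authors as raw read counts, with a second table of TPM values, per the file headers. Reads were handled with STAR 2.7.0f, Bowtie2 2.3.4.1, HOMER 4.11 and DESeq2, per the submitters' processing notes, and the strand setting of counting is not given in the sources used here. Peak lists were called per library with HOMER, per the file headers. Each deposited peak carries the authors' signal (tags scaled to 10000000) and score, used only within its list. The H3K27ac lists passed a 4-fold excess over input and a false discovery rate of 0.001, per the file headers.

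Counts were filtered with filterByExpr, scaled by TMM and fitted over all 5 groups with edgeR 4.0.16 (quasi-likelihood) in R 4.3.3, and a call is an adjusted p below 0.05. On simulated counts for the PND8 comparison, the fit was checked before use. Log2 CPM for likeness used a prior count of 2. Alternatives were other scalings, no filter, DESeq2 1.42.0, limma 3.58.1 on log2(TPM + 1) or log2(TPM + 0.1) of the deposited TPM, the replicate number or the header code as a term, other windows (500 bp or 2 kb on each side), peaks without the lowest 25% of scores, and leaving out each library. All 10 members are named, and of each list of related genes up to 4 called genes with the largest change per comparison; Phlda3 is given as CPM since its adult counts were near 0. Slc1a3 and the other single marker genes, Egr1, Fos and the PND8 value of Ccna2 were named after their values were seen. The members and lists were chosen with earlier results of these data known. The 16 input samples were not used here, and 1 gene among those most like the members is not reported here.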

Additional observations from a re-analysis of the deposited data

How the results depend on the processing

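Of 1260 values of single members under the alternatives, 1177 kept their side of the threshold, 60 lost the call and 23 gained one, and no called value changed direction. Of 126 counts of called members, 14 moved by over 1.5 times. With limma on log2(TPM + 1) and no filter, the calls were 3 by Ki67 at PND8 (6 with edgeR), 1 by Ki67 in repopulation (4 with edgeR) and 1 between repopulating and PND8 Ki67-positive cells (3 with edgeR), and limma on log2(TPM + 0.1) gave 1 by Ki67 in repopulation. Leaving out single libraries gave 2 to 7 calls by Ki67 at PND8, 1 to 3 in repopulation, 1 to 2 between the Ki67-positive and 2 to 6 between the Ki67-negative groups of the 2 models (5 with all libraries), and 7 to 9 of 10 for PND8 Ki67-negative against adult. The cause of these shifts was not tested, beyond the smaller number of libraries.

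Same-numbered libraries deviated together within PND8 (r = 0.34 across genes) and within repopulation (0.26), where they also share a header code, and in no other pair of groups above 0.10. The labels state no pairing. With the replicate block the calls were 6 and 4 by Ki67, 5 between Ki67-positive groups and 6 between Ki67-negative ones. With the header code as a term they were 7, 6, 5 and 6, and this fit was not possible against adult. Scaling by library size alone moved the all-gene median between the Ki67-negative groups of the models to -0.13 from -0.04. Over all genes, calls by Ki67 at PND8 ran from 220 (without the second Ki67-positive library) to 1862 (header code as a term) around 721, and in repopulation from 105 (without the first Ki67-negative library) to 1213 (header code) around 335. Leaving out the first repopulating library lowered the calls against PND8 to 2269 from 3778 (positive) and 2869 from 4473 (negative), and leaving out the second lowered those against adult to 3640 from 5489 (positive) and 3078 from 4789 (negative). The interaction had at most 71 calls, without the first PND8 Ki67-negative library, and in no setting a member. Without the lowest 25% of peak scores 6 members had adult H3K4me3 in both libraries, and the other 75 peak counts stayed within 1.5 times, also with any RefSeq start site, an alternative chosen after seeing the data. The 2 libraries a group and 1 library of Rpb2 at PND8 and of each ATAC group limit what can be compared.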
